A study of Homo sapiens with 3 samples.

Results

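Double-stranded RNA (dsRNA) was profiled in HEK 293 cells, an established human line derived from embryonic kidney, and 349 well-covered dsRNA regions had a summit in Dicer knockdown cells of at most 0.5 times the summit in wild-type cells. These halved regions were 349 of the 4603 regions whose summits averaged at least 100 over both libraries, and of 271645 regions in all. The summit is the greatest read coverage in a region, a whole number, as deposited and with no scaling for the number of reads. The members were chosen on these summits, so their levels and ratios are a description and are not tested. The study had 3 libraries, with 1 library in each group: dsRNA from HEK 293 cells after Dicer knockdown, dsRNA from HEK 293 cells with wild-type Dicer, and DICER ChIP-seq from HEK 293 cells with wild-type Dicer. For both dsRNA libraries, total RNA was digested with T1 nuclease and the RNA that remained was sequenced. The sources used here do not say how Dicer was depleted.

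DICER is a ribonuclease that turns long dsRNA into small interfering RNAs and hairpin precursors into microRNAs. It acts mainly in the cytoplasm, and a nuclear pool has also been described. The T1 nuclease cuts single-stranded RNA after G, so base-paired stretches of a transcript tend to survive the digestion. A region in these lists can therefore lie in a long messenger or noncoding RNA that folds on itself, in a short structured RNA such as a tRNA, or where transcripts from opposite strands pair.

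There were no replicates, so each ratio compares a pair of libraries and carries no p-value. The sheet named induced was read as knockdown and the sheet named normal as wild type. Nothing but these names supports that reading, since both dsRNA samples carry an identical workbook. Were that reading wrong, every direction below would be reversed. The knockdown itself was not checked, since no value for DICER1 was used here. Read depth per library is unknown. A lower summit in knockdown cannot be told apart from less of the transcript, from less of it in double-stranded form, or from fewer cells that make it. How far T1 digestion went in either library was not tested either. Positions are in hg19 and are printed as deposited, with the knockdown start and stop unless said otherwise. No sequence of a region is shown, because no genome of that build was used.

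Well-covered regions were lower by this much in 7.58% of cases (349 of 4603), and higher by 2-fold or more in 8.73% (402 of 4603). The halved regions had a median summit of 104 in knockdown, against 289 in wild type, and a median ratio of 0.412. Their summits ran from 2 to 85829 in knockdown, against 134 to 229596 in wild type. The ratio of 191 members (54.7%) lay above 0.4, and that of 29 members lay at or below 0.2. The nearest members to the ratio limit were at exactly 0.5, for example the region at chr12:112431672-112431743 with 107 in knockdown and 214 in wild type. The nearest region outside it, at chr1:245297221-245297300, had 199 in knockdown and 397 in wild type. At the limit of mean height, the region at chr4:32276016-32276086, with 66 in knockdown and 134 in wild type, was inside. The region at chr17:78078708-78078926, with 45 in knockdown and 154 in wild type, was just outside.

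**Figure D1:**
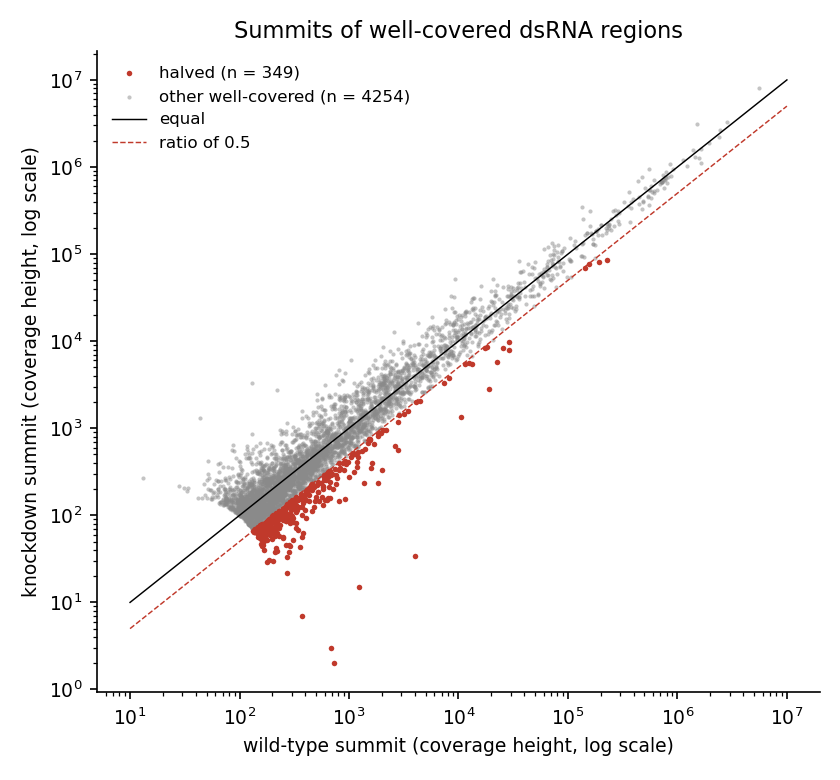
Knockdown summit (vertical) against wild-type summit (horizontal) of each well-covered region, both as coverage heights on log scales. The 349 halved regions (red) lie on or below the dashed line at a ratio of 0.5, most of them among the lower summits, and 5 of them stand far below the rest.

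The halved regions sat at the low end of the well-covered range. They made up 10.8% of regions with a mean summit of 100 to below 300 (231 of 2135, exact 95% interval 9.53% to 12.2%). The share was 7.18% from 300 to below 1000 (79 of 1101), 3.37% from 1000 to below 3000 (20 of 594) and 2.46% at 3000 or more (19 of 773, interval 1.49% to 3.81%). The share of regions higher by 2-fold or more had no such order: it was 7.07%, 8.99%, 13.0% and 9.70% in the same classes. The intervals here and below cover counting error over regions, which are not replicates. All members together held 0.536% of the summed height of the knockdown list, against 1.38% of that of the wild-type list. The deposited final set of 1003 regions, those above a summit of 1500 in both libraries, held 19 members (1.89% of the set).

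The members were wider at the median than the other well-covered regions, in part through a few loci. Their median width was 155 bp in knockdown, against 161 bp in wild type, while the other 4254 well-covered regions had a median of 132 bp in knockdown and 133 bp in wild type. The 402 regions higher by 2-fold or more were narrow, with medians of 112 bp in knockdown and 110 bp in wild type. A wild-type width of 300 bp or more was reached by 94 halved regions (26.9%, exact 95% interval 22.3% to 31.9%), by 606 of the other well-covered regions (14.2%, 13.2% to 15.3%) and by 26 of the 402 regions higher by 2-fold or more (6.47%, 4.27% to 9.33%). Read the other way, 16 of the 39 well-covered regions of 1000 bp or more were halved (41.0%) and 0 were higher by 2-fold or more. Most of these 16 were pieces of the same few loci: without the XIST and MALAT1 spans described below the share was 7 of 30 (23.3%, exact 95% interval 9.93% to 42.3%), and without all the named loci it was 3 of 26 (11.5%, 2.45% to 30.2%). Within each class of level the median was also higher in halved regions, but the intervals in wild type stood apart in the lowest class alone. At a mean summit of 100 to below 300 the wild-type median was 159 bp in halved (145 to 175 bp) and 121 bp in other regions (116 to 128 bp). From 300 to below 1000 it was 162 bp (125 to 189 bp) and 132 bp (129 to 140 bp). At 1000 to below 3000 it was 364 bp in 20 halved regions (interval 132 to 526 bp) and 136 bp in other regions (128 to 142 bp). At 3000 or more it was 231 bp (135 to 520 bp) and 156 bp (149 to 166 bp). Without the XIST and MALAT1 regions the halved median in wild type was 155 bp, and without all the named loci it was 148 bp, with 20.2% of regions at 300 bp or more. The interval of that 148 bp was 133 to 159 bp, against 131 to 137 bp in the other well-covered regions. In knockdown the halved median without the named loci was 134 bp (125 to 153 bp), against 132 bp (128 to 135 bp). Width comes from the same coverage as the summit, so it is not independent of how the members were chosen.

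**Figure D2:**
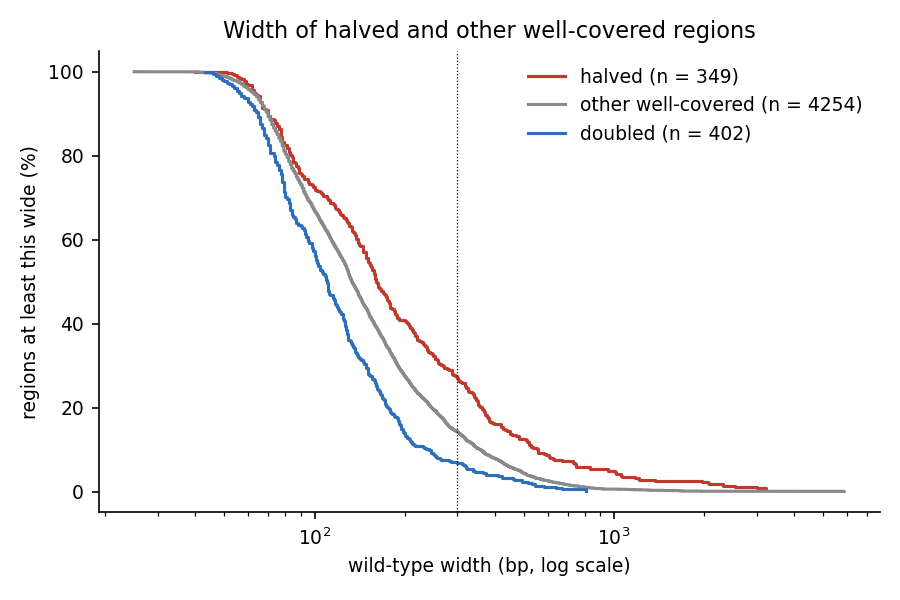
Percentage of regions (vertical) at least as wide in wild type as the value on the horizontal log axis, for halved regions, other well-covered regions and those higher by 2-fold or more (doubled). At 300 bp (dotted line) the curves stand at 26.9% for halved, 14.2% for other and 6.47% for doubled regions.

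The regions themselves changed little in extent. All 349 members overlapped between the libraries, and the median of knockdown width over wild-type width was 0.975 (95% interval 0.964 to 0.985), against 1.00 in the other well-covered regions. Of the members, 223 were narrower in knockdown, 105 were wider and 21 had the same width. A single member had a width in knockdown of at most 0.5 times that in wild type.

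Some members lay in groups along the chromosomes. Joined at gaps of up to 100 kb, the 349 members fell into 286 groups, of which 261 were single regions, 15 were pairs and 10 held 3 or more. Grouped members were 88 of 349 (25.2%), against 89 of the 402 regions higher by 2-fold or more (22.1%), and the largest group held 16 halved regions, against 8 of those higher. Of the other 4254 well-covered regions 2350 (55.2%) had another of their set within 100 kb, but this share rises with the size of a set. The well-covered region nearest to a member, where one lay within 10 kb, was itself halved in 58 of 145 cases (40.0%, exact 95% interval 32% to 48.5%). For other well-covered regions it was halved in 86 of 1637 cases (5.25%, 4.22% to 6.45%). Without the named loci these shares were 12% (10 of 83, interval 5.93% to 21%) and 4.26% (69 of 1620). With neighbours taken up to 100 kb away they were 8.22% (12 of 146, 4.32% to 13.9%) and 5.04% (121 of 2400, 4.20% to 5.99%), and these intervals overlapped. The named loci held 67 of the 349 members, and each was by choice a group of neighbouring members. Leaving them out removes members that lie beside members, so the fall in these shares was in large part fixed by that choice. The names of those loci rest on general knowledge of hg19, with no annotation behind them, and the loci were picked after their values had been seen. In 16 of the 18 the members spanned no more than the length RefSeq gives for the gene in another build, and the exceptions are stated beside their values. Each span runs from the first member to the last, so both its ends are halved by choice, and regions of the gene beyond it are not counted. Exons and introns were not told apart.

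The largest group was at XIST, the long noncoding RNA that coats and silences an X chromosome. Its 16 members spanned chrX:73040499-73072564, a length of 32065 bp, and RefSeq gives the gene as 32059 bp. Their summits were 46 to 1585 in knockdown (median 170), against 208 to 10464 in wild type (median 726). The highest of them, at chrX:73045627-73047992, had 1339 in knockdown and 10464 in wild type, a ratio of 0.128. The widest in wild type, at chrX:73041464-73044632, kept more of its height, with 1585 in knockdown and 3433 in wild type (0.462). Going along the locus, the 3200 bp piece at chrX:73061603-73064803 had 328 in knockdown and 2000 in wild type (0.164), and the last piece, at chrX:73070612-73072564, had 559 in knockdown and 2831 in wild type (0.197). Every member here was lower in knockdown, as the choice requires, but the ratio varied from 0.128 to 0.486 within the RNA.

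Summed over these pieces, which covered 19854 bp in knockdown and 20144 bp in wild type, the height was 6204 in knockdown and 27752 in wild type, a ratio of 0.224. A single well-covered region inside the span was no member, and it stood just outside the limit, with 270 in knockdown and 520 in wild type (0.519). Regions below the minimum height were not used in choosing members. Of the 19 such regions in the span with a mean summit of 10 to below 100, 14 had a ratio of 0.5 or less, and their median was 0.375. Over all regions of that height the share was 35.4%. TSIX, the antisense RNA of XIST, overlaps an end of the gene, and the lists give no strand, so the RNAs of opposite strands could not be told apart there.

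MALAT1, an abundant long noncoding RNA of nuclear speckles, held 8 members between chr11:65266680-65273572, and all 8 well-covered regions in that span were halved. They covered 96.5% of its 6892 bp, with gaps of at most 68 bp. Their summits were 30 to 399 in knockdown (median 230), against 204 to 1855 in wild type (median 722). The highest, at chr11:65268565-65269887, had 235 in knockdown and 1855 in wild type (0.127), and the last and widest, at chr11:65271532-65273572, had 293 in knockdown and 681 in wild type (0.430). The summed height was 1679 in knockdown and 7166 in wild type, a ratio of 0.234.

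**Figure D3:**
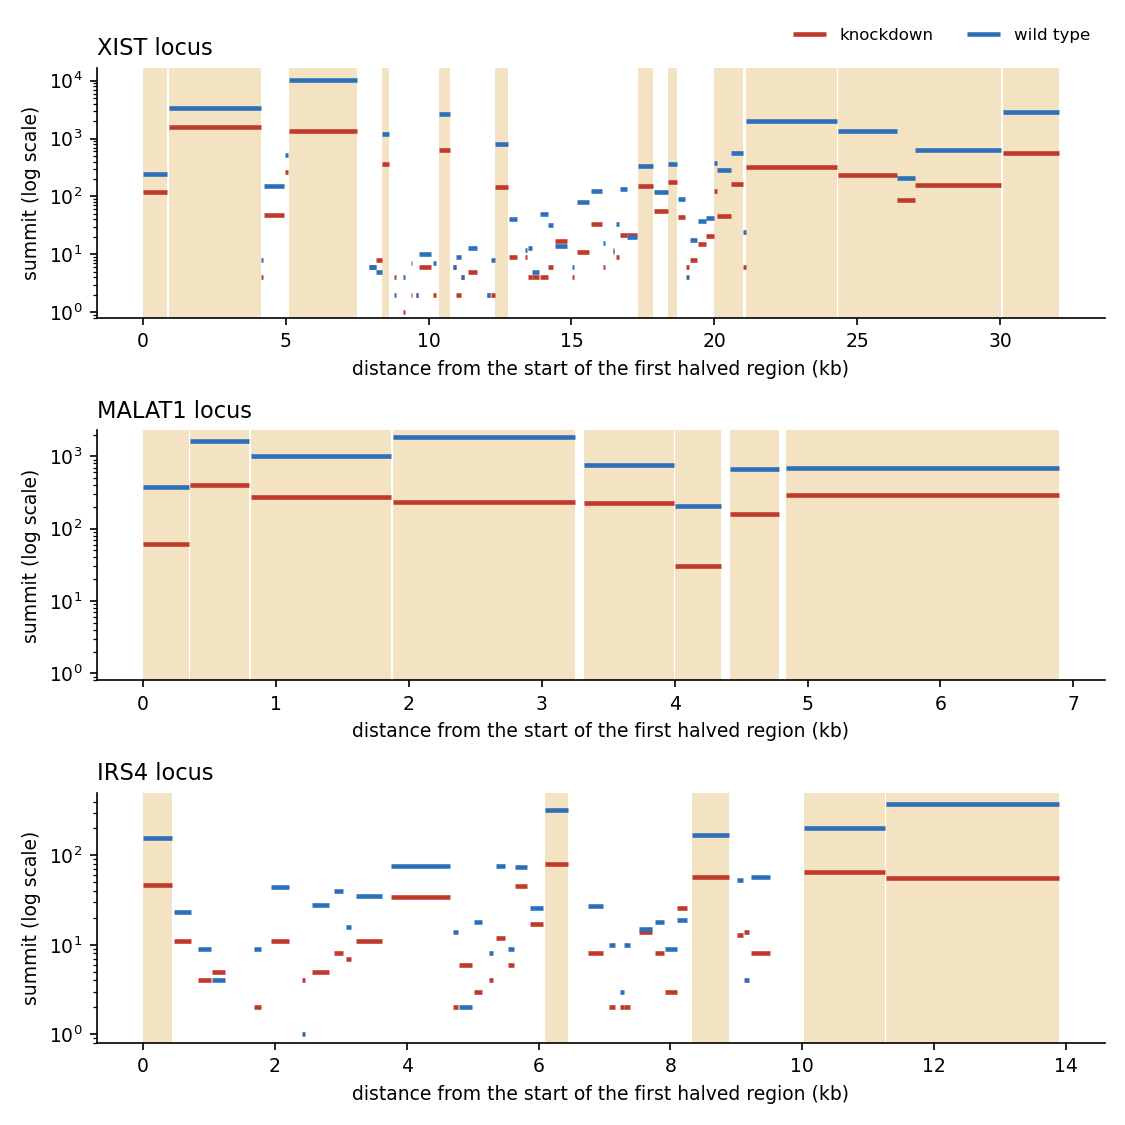
Summits (vertical, log scale) of every region of any height at XIST, MALAT1 and IRS4 in knockdown (red) and wild type (blue), each drawn over its position as distance from the first halved region in kb. Shaded spans are the 16, 8 and 5 halved regions, in each of which the knockdown bar lies below the wild-type bar.

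The other 16 named loci were at protein-coding genes. They held 43 members, with ratios of summed height between 0.251 and 0.489 (median 0.401). IRS4, an insulin receptor substrate that HEK 293 cells are known to express, had 5 members between chrX:107965753-107979646, with summits of 47 to 81 in knockdown, against 158 to 371 in wild type. Its widest, at chrX:107977050-107979646, had 56 in knockdown and 371 in wild type (0.151). In its span 13 of the 17 lower regions, with a mean summit of 10 to below 100, also had a ratio of 0.5 or less. The share over all lower regions was 35.4%. DDX17, a DEAD-box RNA helicase, had 4 members on chromosome 22, of which the lowest in ratio, at chr22:38883866-38884268, had 43 in knockdown and 357 in wild type (0.12). CKB, the brain-type creatine kinase, had 4 members on chromosome 14 within 1394 bp, with 66 to 132 in knockdown, against 207 to 582 in wild type. CA2, a carbonic anhydrase, had 4 members on chromosome 8, with 52 to 414 in knockdown, against 178 to 1194 in wild type.

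ACTG1, which encodes cytoplasmic gamma-actin, had 3 members that covered 98.9% of a 2397 bp span, with 293 to 672 in knockdown, against 597 to 1499 in wild type, and ratios of 0.448 to 0.491. YWHAE, a 14-3-3 protein, had 3 members among 6 well-covered regions, with a ratio of sums of 0.462. HSP90B1, a chaperone of the endoplasmic reticulum, had 2 members with 42 and 56 in knockdown, against 215 and 169 in wild type. In its span 8 of the 12 lower regions had a ratio of 0.5 or less, against 35.4% of all lower regions. GPI, an enzyme of glycolysis, had 2 members with 38 and 93 in knockdown, against 286 and 215 in wild type. In the GPI span 4 of the 10 lower regions had such a ratio. RPS24, a ribosomal protein gene, had 2 members among 3 well-covered regions, with 524 and 750 in knockdown, against 1083 and 1521 in wild type. LDHB, HNRNPC, FBL, SOD1, CCT5 and HNRNPA2B1 had 2 members each, with ratios of sums over the members between 0.383 and 0.481. Not every well-covered region in these spans was halved. HNRNPA2B1 had 2 others, with 143 and 138 in knockdown, against 278 and 255 in wild type. HNRNPC had 1 other, with 217 in knockdown and 348 in wild type (0.624), and LDHB had 1 other, with 115 in knockdown and 182 in wild type (0.632). Over all well-covered regions in the span the ratio of sums was 0.455 at HNRNPA2B1, 0.482 at HNRNPC, 0.504 at LDHB, 0.503 at RPS24 and 0.526 at YWHAE. These are not ratios for the whole genes, since a span can be a small part of one. At RPS24 it was 1983 bp of a gene of 22944 bp, and at HNRNPC 2164 bp of 60296 bp. The near-identical genes RTL8C and RTL8A on chromosome X had a member each, 100 and 106 in knockdown, against 245 and 266 in wild type, and reads may have been shared between them. Their span of 19367 bp holds both genes. No member at any of the 18 loci lay at a DICER peak.

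Regions with a mean summit of 10 to below 100, which could not be members, had a ratio of 0.5 or less in 35.4% of cases (11064 of 31273). Within 10 kb of a halved region the share was 41.6% (329 of 791, exact 95% interval 38.1% to 45.1%), with a median ratio of 0.571. Within 10 kb of other well-covered regions alone it was 26.3% (904 of 3442, 24.8% to 27.8%), with a median ratio of 0.765, and near neither it was 36.4% (9831 of 27040, 35.8% to 36.9%), with a median ratio of 0.667. Outside the spans of the named loci the share within 10 kb of halved regions was 38.9% (277 of 712, 35.3% to 42.6%). That interval takes in the 35.4% over all such regions but lies above the 26.3% beside other well-covered regions alone. Within 1 kb of halved regions, outside those spans, the share was 36.6% (75 of 205, 30% to 43.6%). Within 1 kb of other well-covered regions alone it was 19.4% (267 of 1378, 17.3% to 21.6%). Inside those spans 52 of 79 lower regions (65.8%) had such a ratio. The loci differed, with 14 of 19 at XIST, 13 of 17 at IRS4, 8 of 12 at HSP90B1 and 6 of 8 at DDX17. The counts were 4 of 10 at GPI, 2 of 5 at CA2 and 0 of 1 at RTL8C and RTL8A. The median ratio was 0.667 over all 31273 of these lower regions and 0.950 over all well-covered regions, and the cause of this difference was not tested. The difference by level, with the named loci included, was widest at a mean summit of 50 to below 100. There the share was 35.7% beside halved regions (55 of 154, 28.2% to 43.8%) and 15.5% elsewhere (421 of 2712, 14.2% to 16.9%).

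**Figure D4:**
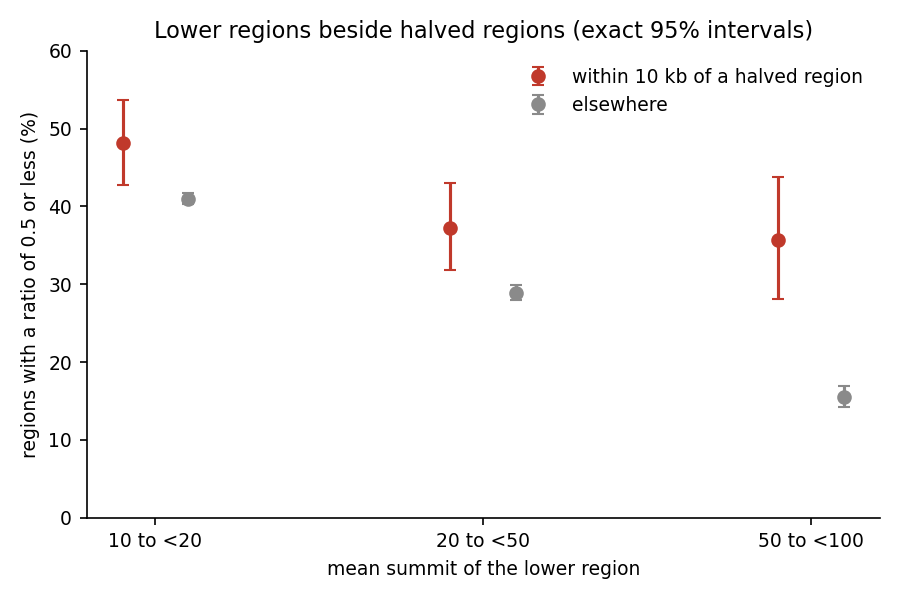
Percentage of lower regions with a ratio of 0.5 or less (vertical) by their own mean summit (horizontal), for regions within 10 kb of a halved region (red) and elsewhere (grey), with exact 95% intervals. The red points are higher in each class, at 48.2%, 37.3% and 35.7%, against 41.0%, 28.9% and 15.5%.

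Genes could be named for few of the regions by position. From the spacing of neighbouring small RNA genes, 197 well-covered regions could be named, of which 179 were tRNA genes, 16 snoRNA genes and 2 snRNA genes. The other well-covered regions, 348 of the 349 members among them, have no small RNA name here, so short RNA genes may be among them. Patterns that also matched a second place with over 0.5 times as many genes were left unnamed. Arrays of repeated genes, tRNA genes included, may therefore be missing from the 197. On raw summits none of the 179 named tRNA regions was halved (an upper 95% limit of 2.04%), while 34 (19%) were higher by 2-fold or more. That limit does not cover tRNA genes left unnamed, and the count was not repeated on scaled summits. That tRNA regions were mostly higher in knockdown was known from earlier work on these data. The lowest tRNA ratios were in aspartate tRNA genes on chromosome 6, just outside the ratio limit of 0.5. Scaling to the sums multiplies knockdown summits by 0.958, so regions this near the limit could then be members. TRD-GTC2-7, at chr6:27471497-27471622, had 6749 in knockdown and 13333 in wild type (0.506), and TRD-GTC3-1, at chr6:27551139-27551333, had 54624 in knockdown and 106213 in wild type (0.514). Of the 16 named snoRNA regions 1 was halved (6.25%, exact 95% interval 0.158% to 30.2%), a share whose interval takes in 7.58%. It was SNORA21B, an H/ACA snoRNA gene of the kind that guides pseudouridylation, at chr17:37007747-37007924, with 233 in knockdown and 558 in wild type (0.418).

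The highest members had no gene name here, so tRNA or other short RNA genes may be among them. The highest of all, at chr1:161440120-161440325, had 85829 in knockdown and 229596 in wild type (0.374). The next, at chr19:36066674-36066806, had 81092 in knockdown and 191267 in wild type (0.424). The region at chr4:70296641-70296757 followed, with 77458 in knockdown and 155541 in wild type (0.498). That at chr8:70602276-70602643 had 68409 in knockdown and 141864 in wild type (0.482). These 4 stood apart in height, as the next member had a summit of 9654 in knockdown and 29234 in wild type.

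DICER peaks lay at some of these high members. In all, 9 halved regions (2.58%, exact 95% interval 1.19% to 4.84%) and 65 other well-covered regions (1.53%, 1.18% to 1.94%) overlapped a peak by 1 bp or more, and the intervals overlapped. At a mean summit of 3000 or more the shares were 7 of 19 halved regions (36.8%, 16.3% to 61.6%), 41 of 754 other regions (5.44%, 3.93% to 7.30%) and 3 of 75 regions higher by 2-fold or more (4.00%, 0.833% to 11.2%). The 9 members shared 7 of the 119 deposited peaks. Where reads with several matches went is not known, so members at different peaks may share reads and need not be separate sources. That peaks lay at several of the lowest ratios in the final set had been seen before in these data. No input or control ChIP library was used.

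**Figure D5:**
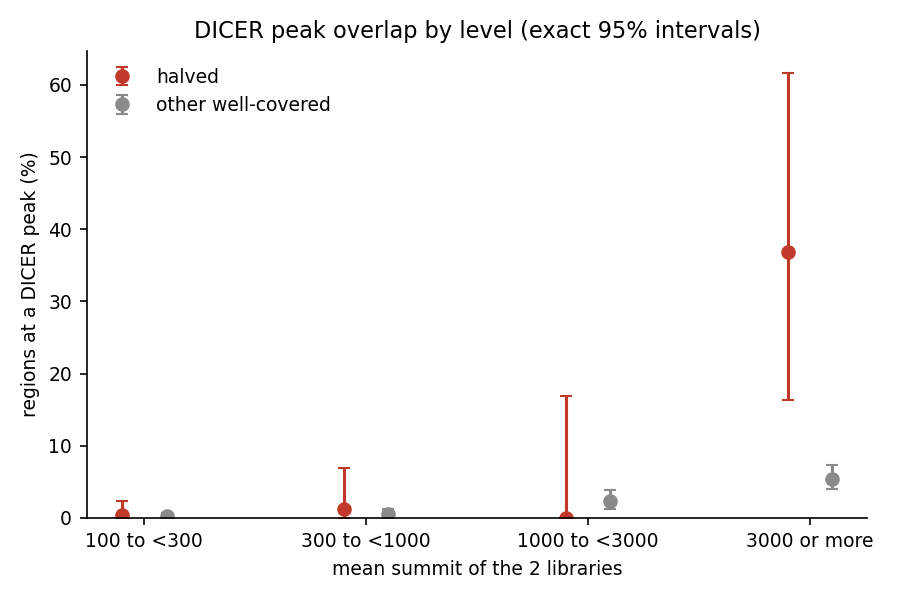
Percentage of regions at a DICER peak (vertical) by mean summit of both libraries (horizontal), for halved (red) and other well-covered regions (grey), with exact 95% intervals. At 3000 or more the value is 36.8% for 19 halved regions and 5.44% for 754 other regions, and below that the intervals overlap.

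Among the members at peaks, the widest was at chr21:9825398-9826481, with 5703 in knockdown and 22634 in wild type (0.252), under a peak whose score of 729 is the authors' and ranks 3 in the list. That peak held 2 well-covered regions, of which 1 was halved, and so did the peak at chr19:36066365-36066946. The peak at chr20:26188712-26190436 covered 3 members and no other well-covered region. The middle one of these, at chr20:26188994-26189108, had 2796 in knockdown and 19079 in wild type (0.147). Its neighbours had 104 and 354 in knockdown, against 291 and 1587 in wild type. The region at chr5:71146735-71146963 had 8413 in knockdown and 25418 in wild type (0.331), and that at chr2:230045463-230045793 had 5488 in knockdown and 13242 in wild type (0.414). That at chrX:108297332-108297851 had 8451 in knockdown and 17348 in wild type (0.487). A further group, of 6 members without a peak, lay at chr2:133014511-133039075, where all 6 well-covered regions were halved. Its highest had 8629 in knockdown and 18090 in wild type (0.477).

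The 5 lowest ratios were in narrow regions, while the 23 members with ratios above 0.1 and up to 0.2 had the widest median of any band, 349 bp in wild type. Most of these 23 were pieces of the named loci, XIST and MALAT1 above all. The median of the band without those loci was not taken, so no link of ratio with width is drawn. The region at chr11:5327500-5327535 had 2 in knockdown and 736 in wild type, and that at chr4:1708972-1709034 had 3 in knockdown and 688 in wild type. On chromosome 1 the region at chr1:62390855-62390945 had 34 in knockdown and 3986 in wild type (0.00853), and that at chr1:62950682-62950811 had 15 in knockdown and 1234 in wild type (0.0122). The region at chr2:232506389-232506454 had 7 in knockdown and 372 in wild type (0.0188). The 5 had ratios at or below 0.05, wild-type widths of 40 to 145 bp, no gene name and no DICER peak. The next member, at chr17:40271555-40271621, had a ratio of 0.0812, with 22 in knockdown and 271 in wild type.

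Members were found on all 24 chromosomes in the lists. Chromosome X had the highest share of its well-covered regions halved, 16.7% (40 of 240, exact 95% interval 12.2% to 22%), and it was the single chromosome whose interval lay wholly above 7.58%. Without the XIST span the share was 10.8% (24 of 223, 7.02% to 15.6%), an interval that takes in 7.58%. Chromosomes 6 (3.76%, 13 of 346, 2.02% to 6.34%) and 15 (2.11%, 3 of 142, 0.438% to 6.05%) had intervals wholly below it. Chromosome 1 had the most well-covered regions, 501, of which 29 were halved (5.79%).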

How the data were processed

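Groups were taken from the sample labels. Per the submitters' processing notes, all libraries used hg19, with BWA 0.7 and bcl2fastq 1.8.4 named for dsRNA and MACS 1.4 and Bowtie 0.12.7 for ChIP. The sources used here do not say how dsRNA regions were called or where reads with several matches went. The deposited sheets hold start, stop and summit, a coverage signal per region that is not normalized. The deposited peak list holds a score per peak, used to rank and filter peaks.

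Both sheets were paired by row number, and raw summits were compared without a pseudocount. Width is stop minus start. A region was taken as the union of both libraries for overlap and distance. Shares carry exact 95% binomial (Clopper-Pearson) intervals and medians carry intervals from order statistics. Small RNA genes of up to 450 bp in RefSeq (GRCh38.p14), used for names and spacing alone, were joined at gaps of up to 100 kb. Each pattern was slid along the well-covered regions with a tolerance of 10 bp and kept where at least 5 genes matched and no second position matched over 0.5 times that number. This placed 15 of 79 patterns, and 0 of 79 mirrored ones. The members, gene classes and loci were chosen with earlier results of these data known. Regions are named by a fixed rule: the highest, the lowest in ratio, the widest, those at peaks or in the final set, the top of the largest groups, and those at the limits. The pieces and loci given beyond it were chosen after their values were seen. Values without the named loci were added after seeing the data. The scripts were tested on simulated data. They ran in Python 3.11.15 with pandas 2.3.3, numpy 2.4.6 and scipy 1.17.1.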

Additional observations from a re-analysis of the deposited data

How the results depend on the processing

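Of 43 alternative values, 28 stayed within 1.5 times a count or within the 95% interval of a share or median. The number of halved regions was 349. It was 825, 171 and 68 with a minimum mean summit of 50, 200 and 500, 552 with the minimum set on the wild-type summit and 184 on the knockdown summit, and 158 and 44 with a ratio of at most 0.4 and 0.25. It was 408 scaled to the sums, 290 after scaling to the median ratio, and 129 when sums were taken without the highest 1% of regions, a scaling that raises every log2 ratio by 0.43. With a minimum mean summit of 200 the median wild-type summit of members was 628 and the final set held 11.1% of them. The share with another member within 100 kb was 25.2%, and 31.0% with a ratio of at most 0.4. It was 20.6% and 44.4% with gaps of up to 10 kb and 1000 kb. Without the XIST and MALAT1 spans, an alternative added after seeing the data, it was 19.1%, and chromosome X had 10.8% of its regions halved in place of 16.7%. Both spans are groups of members, so lower shares follow in part from what was left out. The limits and gaps change which rows or groups are counted, while the scalings keep the same 4603 rows. Which scaling is right could not be told. Depth per library is unknown, so no detection limit is given. No paired analysis was possible because there was 1 library in each group.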
